A study of Bos taurus with 6 samples.

Results

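The genes described are those of the nuclear pore complex, 30 nucleoporins given as a list of symbols, with no measured value in the rule. Of these, 29 were found by symbol among the 23704 genes to which the deposited transcripts were assigned, and all 29 passed the filter on low counts and are among the 14639 genes tested. The lowest count of any of them in any library was 171 estimated reads. POM121, a membrane-anchored nucleoporin, carried no entry under that symbol in the gene table used here and has no value.

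The nuclear pore complex is the channel through the nuclear envelope, and everything that moves between nucleus and cytoplasm passes through it. Stacked rings built from the Y complex and the inner ring form its frame, phenylalanine-glycine (FG) repeat proteins fill the central channel, and filaments extend into the cytoplasm and, as the nuclear basket, into the nucleoplasm. In the oocyte, a large non-dividing cell that accumulates RNA and protein over a long growth phase, pores are also found outside the nucleus, in stacked membranes called annulate lamellae.

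The samples were bovine (Bos taurus) primordial follicles (PMF), each an oocyte within a layer of flattened pre-granulosa cells, isolated mechanically from the ovaries of Holstein Friesian dairy cows aged 1 to 2 years and pooled before RNA extraction. The T0 group comprised PMF taken soon after isolation, following 1 h of recovery in a medium with insulin, transferrin, selenium and FSH. The T16 group comprised PMF kept in culture for 16 h, in conditions that are not given in the sources used here. No label gives either group a genetic change or a drug, and each had 3 libraries of full-length amplified cDNA from total RNA. The study describes the pools as biological replicates built from follicles of many animals. The sources used here do not tie a pool to animals, so the p-values below measure the spread between these pools. The study asked which signalling pathways change early when isolated PMF are cultured, and the T16 against T0 comparison addresses that question.

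Total estimated counts were 22174653 to 36703016 per library. Summed over 17 oocyte marker genes, levels in TPM (corrected for transcript length and library size) were 628, 2446 and 3673 in T0 replicates 1, 2 and 3, and 2584, 97.2 and 911 in T16 replicates 1, 2 and 3. T0 replicate 1 and T16 replicate 2 thus had the lowest oocyte marker sums of their groups, and the groups overlapped. They are called oocyte-poor below, a name for these marker sums and not for a measured oocyte content. The marker KIT went the other way, highest of each group in T0 replicate 1 (59.3 TPM) and T16 replicate 2 (39.5 TPM). Summed granulosa markers were 730.5 to 1678 TPM at T0 and 500.5 to 1508 TPM at T16, with the FSH receptor gene FSHR at 0 in 1 library. The sum hides opposite changes. Without overlap in TPM, 3 of these 9 markers were lower at T16 and 1 higher, against 11.6% and 11.5% of all genes tested. FOXL2, WNT6 and FSHR had means of 72.1, 89.6 and 28.2 TPM at T0 and 12.9, 5.57 and 1.54 TPM at T16. FST had means of 68.0 TPM at T0 and 353 TPM at T16. Stromal markers were 1063 to 2443 TPM at T0 and 272 to 1655 TPM at T16, with TCF21 at 0 in 2 libraries. Theca markers were 220.5 to 1310 TPM at T0 and 40.5 to 160 TPM at T16, and smooth muscle markers 112 to 435 TPM and 23.4 to 104.5 TPM. Endothelial markers were 23.5 to 393 TPM at T0 and 16.3 to 39.1 TPM at T16, immune markers 8.31 to 44.2 TPM and 2.74 to 52.9 TPM, and genes at 0 in at least 1 library numbered 4 of 7 smooth muscle markers (ACTA2 and MYH11 among them), 4 of 8 endothelial (PECAM1, CDH5) and 4 of 5 immune (PTPRC, CD68). The endothelial, theca and immune sums rested largely on single genes. In T0 replicate 1, CLDN5 alone was at 382 TPM, STAR at 1268 TPM and CSF1R at 8.31 TPM. These sums are therefore no measure of cell content. T16 replicate 1 had the lowest stromal, theca, smooth muscle and endothelial sums of all libraries. The part of these cell types in the nucleoporin results was not tested, and in pooled follicles fewer cells of a type and less RNA per cell cannot be told apart.

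Nucleoporin transcripts were present in every library of both groups, and 26 of the 29 members had a mean of 10 TPM or more over the 6 libraries. Their summed level was 1646, 2100.5 and 2439 TPM in the T0 libraries and 3162, 1777 and 1817 TPM in the T16 libraries. T16 replicate 1 stood above all other libraries, and T16 replicates 2 and 3 lay inside the T0 range. SEC13 alone held 30.6% of the summed member TPM at T0 and 20.9% at T16. Without SEC13 the sums were 1232, 1435 and 1629 TPM at T0 and 2523, 1480 and 1343.5 TPM at T16, again with overlap.

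**Figure D1:**
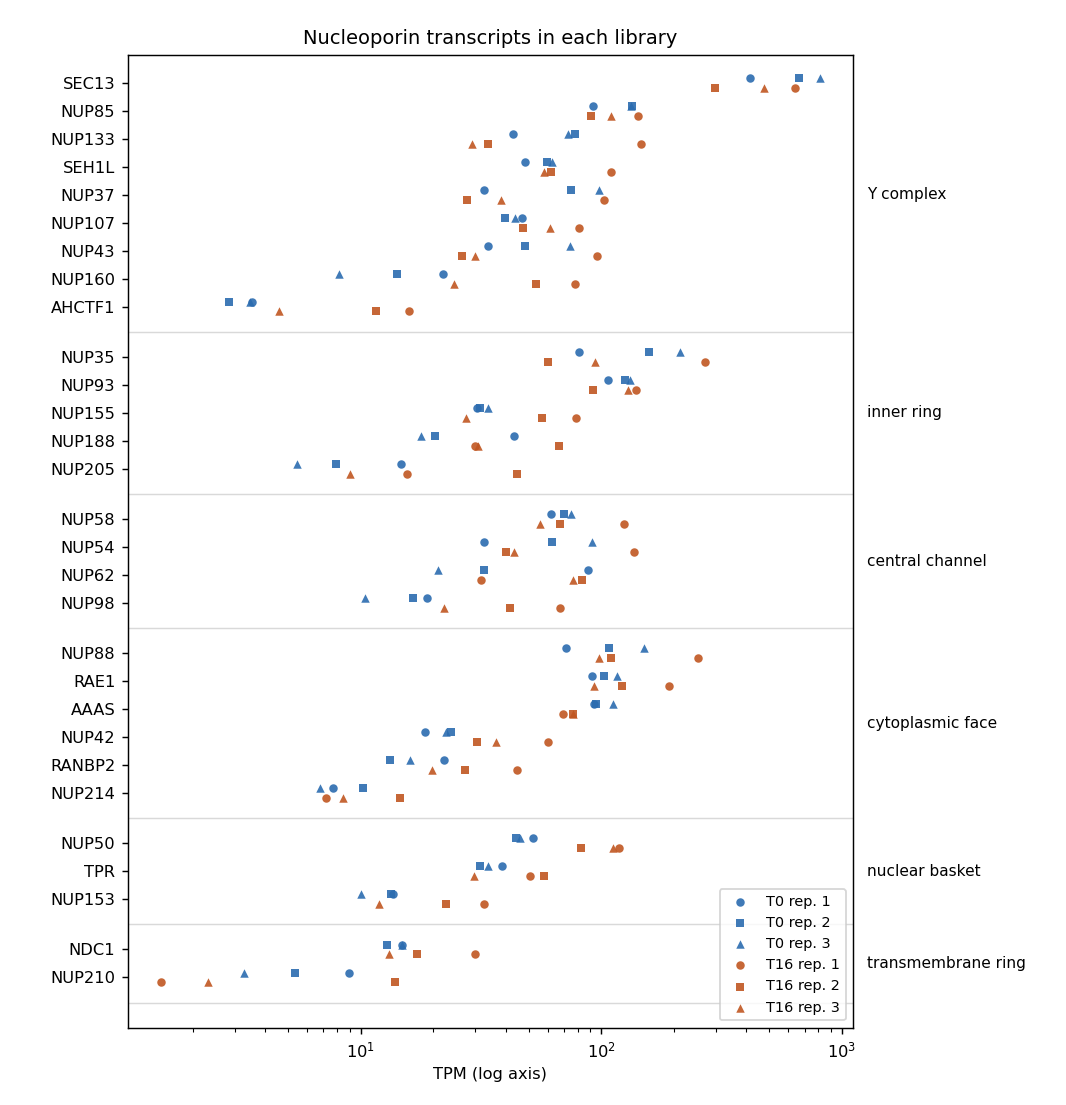
Level of each nucleoporin in TPM (log axis) in the 3 T0 libraries (blue) and the 3 T16 libraries (orange), grouped by subcomplex and ordered by mean level, with 1 point per library. SEC13 is the most abundant member at 297 to 811 TPM and NUP210 the least abundant at 1.48 to 13.9 TPM.

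Compared between T0 and T16, no nucleoporin passed the edgeR quasi-likelihood test at a false discovery rate (FDR) of 0.05 over all 14639 genes, where 0.0342% of genes were called higher and 0.00683% lower at T16. In simulated counts at the spread of these libraries, edgeR called 5 of 67 genes changed 4-fold. It thus missed most changes of that size, and the lack of a call does not show that a member was unchanged. At an unadjusted edgeR p below 0.05, 5 members were higher at T16 (NUP160, AHCTF1, NUP98, NUP42 and NUP50) and 0 lower, against 8.61% and 5.14% of all genes. DESeq2, the alternative tool, called 4 of these 5 at the same FDR (NUP160, AHCTF1, NUP98 and NUP50) and 0 lower, 13.8% of members against 4.04% of all genes called higher and 2.92% called lower. DESeq2 called 1019 genes in all and edgeR 6, so the call for these 4 members depends on the tool. In the same simulated counts DESeq2 called 27 of the 67 genes changed 4-fold. It also called 114 genes that had not been changed, where edgeR called 3, so its adjusted p-values are to be read with caution.

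The log2 fold change (T16 over T0, edgeR) was above 0 in 26 of 29 members, or 89.7%, where 46.6% of all genes tested were above 0. The median over the members was 0.49, with a range from -0.31 to 1.82, and the median over all genes tested was -0.08. In CPM, counts scaled to library size with the edgeR normalization, all 3 T16 libraries lay above all 3 T0 libraries in 7 members (24.1%) and below them in 0, against 13.2% and 10.6% of all genes. On the TPM scale, 6 members were without overlap and higher at T16 and 1 without overlap and lower, against 11.5% and 11.6% of all genes, and 5 members were without overlap and higher on both scales. The members share libraries and are not replicates of the culture, so these counts describe the list and carry no test.

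**Figure D2:**
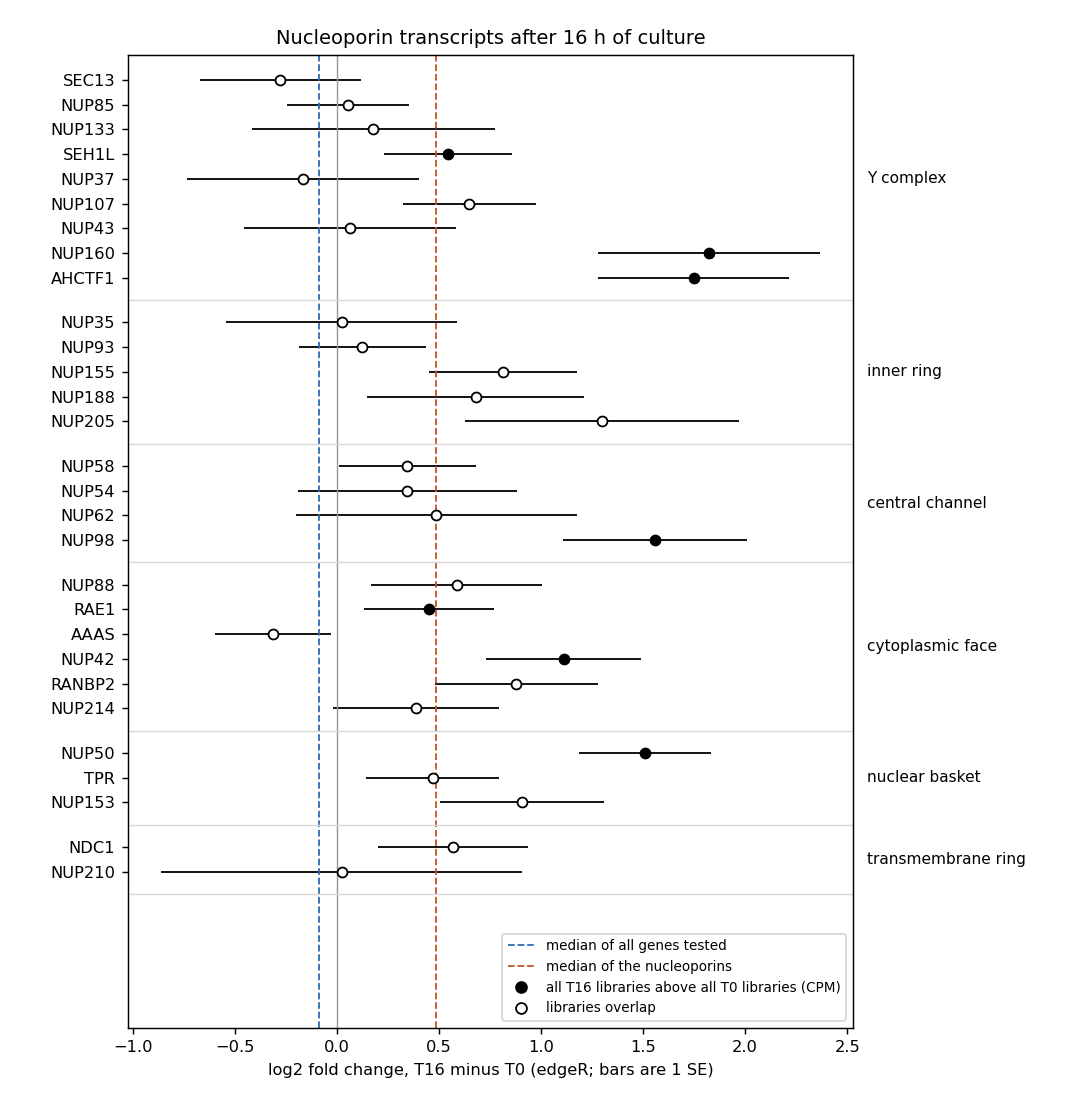
Log2 fold change (T16 minus T0, edgeR) of each nucleoporin with bars of 1 standard error (SE), 3 libraries per group, filled where the CPM of the groups do not overlap. The 5 largest values with no overlap belong to NUP160, AHCTF1, NUP98, NUP50 and NUP42, while the dashed lines mark the medians of all genes (-0.08) and of the members (0.49).

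The Y complex is the scaffold of the outer rings. NUP160, a core scaffold protein of its arms, was at 21.9, 14.1 and 8.14 TPM in the T0 libraries and 77.7, 53.6 and 24.5 TPM in the T16 libraries. Every T16 library was above every T0 library, by a narrow margin between T0 replicate 1 and T16 replicate 3. For NUP160 the log2 fold change, 1.82 ± 0.54 (SE), was the largest of the members (edgeR adjusted p = 0.198, DESeq2 adjusted p = 0.0306). AHCTF1 (ELYS), which binds chromatin and seeds pore assembly, was at 3.53, 2.85 and 3.45 TPM at T0 and 15.9, 11.6 and 4.58 TPM at T16. The T0 values lay close together and the T16 values all above them, with T16 replicate 3 nearest. The log2 fold change of AHCTF1 was 1.75 ± 0.47 (SE; edgeR adjusted p = 0.159, DESeq2 adjusted p = 0.0214).

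NUP107, which joins the stem of the Y, was at 46.7, 39.7 and 43.8 TPM at T0 and 81.2, 47.2 and 61.3 TPM at T16. The groups were separate in TPM but overlapped in CPM, where T0 replicate 1 reached 105 and T16 replicate 2 was at 96.0. NUP107 had a log2 fold change of 0.65 ± 0.33 (SE, edgeR adjusted p = 0.448). SEH1L, a short arm subunit that also serves in the GATOR2 complex of nutrient signalling, was at 115, 111 and 129 CPM at T0 and 229, 140.0 and 147 CPM at T16. These CPM values did not overlap, but in TPM T16 replicate 3 (57.6) fell inside the T0 range of 48.2 to 62.2. The log2 fold change of SEH1L was 0.54 ± 0.31 (SE, edgeR adjusted p = 0.51).

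SEC13, whose protein is also a coat subunit of COPII transport vesicles, was the most abundant member. It was at 414, 666 and 811 TPM in the T0 libraries and 639, 297 and 473 TPM in the T16 libraries. The lowest library of each group was the oocyte-poor one and the groups overlapped. SEC13 had a log2 fold change of -0.28 ± 0.40 (SE, edgeR adjusted p = 0.832). The other 4 scaffold subunits had log2 fold changes between -0.16 and 0.18, with overlapping libraries in all 4. NUP133 was at 64.5 ± 18.7 TPM (SD, n = 3) at T0 and 69.5 ± 66.0 TPM at T16, where 1 library (replicate 1, 146 TPM) stood far above 33.88 and 28.95 TPM. NUP85 was at 119.7 ± 23.7 and 114 ± 26.1 TPM, NUP37 at 68.5 ± 33.4 and 56.1 ± 40.4 TPM, and NUP43 at 52.0 ± 20.4 and 50.9 ± 39.5 TPM. The Y complex median log2 fold change was 0.18.

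The inner ring connects the outer scaffold to the pore membrane and to the channel. No inner ring member had groups without overlap on either scale, although all 5 log2 fold changes were above 0 with a median of 0.68. NUP35, which contacts the pore membrane and was the most abundant of the ring, was at 81.0, 158 and 213 TPM at T0 and 269.9, 59.9 and 94.3 TPM at T16. Both groups spanned a wide range, T16 replicate 1 was the highest of the 6 and T16 replicate 2 the lowest. NUP35 had a log2 fold change of 0.02 ± 0.57 (SE, edgeR adjusted p = 0.992). NUP205, a large paired scaffold protein and the least abundant of the ring, was at 14.8, 7.92 and 5.43 TPM at T0 and 15.5, 44.7 and 9.03 TPM at T16. Here T16 replicate 2 was the high library, and T16 replicate 3 lay inside the T0 range. The NUP205 log2 fold change of 1.30 ± 0.67 (SE, edgeR adjusted p = 0.463) came down to 0.45 without T16 replicate 2.

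NUP188, the structural relative of NUP205, was highest in the same libraries, T0 replicate 1 (43.2 TPM) and T16 replicate 2 (66.7 TPM), and had a log2 fold change of 0.68 ± 0.53 (SE, edgeR adjusted p = 0.654). NUP155, a linker of the ring, was at 31.9 ± 1.77 TPM (SD, n = 3) at T0, the tightest T0 group of all members, and at 54.2 ± 25.5 TPM at T16. NUP155 had a log2 fold change of 0.81 ± 0.36 (SE, edgeR adjusted p = 0.385), with T16 replicate 3 (27.5 TPM) below every T0 library. NUP93, the adaptor that holds the channel proteins, had a mean of 121 TPM in both groups (SD 13.3 at T0 and 24.5 at T16) and a log2 fold change of 0.13 ± 0.31 (SE, edgeR adjusted p = 0.909).

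The central channel is formed by FG-repeat proteins that make the permeability barrier and bind transport receptors. NUP98, an FG protein that also takes part in mRNA export and is cleaved from a precursor shared with NUP96, was at 18.8, 16.5 and 10.4 TPM at T0 and 67.7, 41.8 and 22.1 TPM at T16. All T16 libraries were above all T0 libraries, with replicate 3 the lowest of each group. NUP98 had a log2 fold change of 1.56 ± 0.45 (SE; edgeR adjusted p = 0.186, DESeq2 adjusted p = 0.0366). NUP58, a partner in the channel trimer and its most abundant gene here, was at 61.6, 70.3 and 75.0 TPM at T0 and 125, 67.4 and 55.6 TPM at T16. T16 replicate 1 was high, T16 replicate 2 lay inside the T0 range and T16 replicate 3 below it. NUP58 had a log2 fold change of 0.35 ± 0.34 (SE, edgeR adjusted p = 0.732).

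NUP54, the second trimer subunit, was at 62.3 ± 29.7 TPM (SD, n = 3) at T0 and 73.4 ± 54.9 TPM at T16. NUP62, the third, had the opposite order among libraries at 88.2, 32.7 and 21.0 TPM at T0 and 31.7, 83.2 and 76.0 TPM at T16. It was highest in the oocyte-poor library of each group and had the widest T0 spread of all members, 4.20 times from lowest to highest. NUP54 and NUP62 had log2 fold changes of 0.35 ± 0.54 and 0.49 ± 0.69 (SE; edgeR adjusted p = 0.846 and 0.828). The order of the 6 libraries thus differed among genes whose proteins assemble with each other.

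The cytoplasmic face carries the filaments where mRNA particles are remodelled on leaving the pore. NUP42, which helps activate the export helicase DDX19, was at 18.5, 23.7 and 22.6 TPM at T0 and 60.2, 30.6 and 36.5 TPM at T16. The groups did not overlap, and T16 replicate 1 was the highest library. NUP42 had a log2 fold change of 1.11 ± 0.38 (SE; edgeR adjusted p = 0.252, DESeq2 adjusted p = 0.119). RAE1, an mRNA export factor that binds NUP98, was at 119, 112 and 127 CPM at T0 and 222, 141 and 128 CPM at T16. The separation in CPM was by less than 1 CPM between T0 replicate 3 and T16 replicate 3, and in TPM the groups overlapped (91.8 to 117 at T0 and 93.2 to 191 at T16). RAE1 had a log2 fold change of 0.45 ± 0.32 (SE, edgeR adjusted p = 0.614).

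AAAS (aladin), a WD-repeat protein mutated in triple A syndrome in humans, was the member with the lowest log2 fold change, -0.31 ± 0.28 (SE, edgeR adjusted p = 0.71). AAAS was at 93.7, 94.7 and 112 TPM at T0 and 69.7, 75.9 and 76.3 TPM at T16. These TPM values did not overlap, whereas in CPM T16 replicate 3 (107) was above T0 replicate 2 (99.8). NUP88, which docks NUP214 to the pore and was the most abundant gene of this face, was at 71.6, 107 and 151 TPM at T0 and 253, 109 and 98.3 TPM at T16. Only T16 replicate 1 was outside the T0 range. NUP88 had a log2 fold change of 0.59 ± 0.42 (SE, edgeR adjusted p = 0.619).

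NUP214, an FG protein of the filaments and the least abundant of this face, was at 7.70, 10.2 and 6.77 TPM at T0 and 7.15, 14.6 and 8.40 TPM at T16. It was among the 5 members whose lowest T16 library was replicate 1. NUP214 had a log2 fold change of 0.39 ± 0.41 (SE, edgeR adjusted p = 0.757). RANBP2, the largest filament protein and a SUMO ligase, was at 17.1 ± 4.53 TPM (SD, n = 3) at T0 and 30.5 ± 12.7 TPM at T16, with a log2 fold change of 0.88 ± 0.40 (SE, edgeR adjusted p = 0.392).

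The nuclear basket receives cargo on the nucleoplasmic side. It alone of the 6 subcomplexes had a summed level that did not overlap between groups, where 11.5% of all genes tested were higher without overlap in TPM. Of its 3 genes only NUP50 was itself without overlap, and NUP153 and TPR overlapped, so the sum repeats the NUP50 result. The sum was 104, 89.1 and 89.9 TPM at T0 and 202, 163 and 153 TPM at T16. The sums of the other subcomplexes all overlapped between T0 and T16, among them the Y complex with 736 to 1306 TPM at T0 and 650 to 1410 TPM at T16. NUP50, a mobile basket protein that promotes release of importin cargo, was the most abundant of the 3 basket genes. It was at 52.0, 44.3 and 46.0 TPM at T0 and 119, 82.4 and 111 TPM at T16. All T16 libraries were well above all T0 libraries, and no single library set the difference. NUP50 had the smallest p of all members, with a log2 fold change of 1.51 ± 0.32 (SE; edgeR adjusted p = 0.115, DESeq2 adjusted p = 0.00231).

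NUP153, which anchors the basket to the nuclear ring, was at 13.6, 13.4 and 10.01 TPM at T0 and 32.5, 22.6 and 11.9 TPM at T16. T16 replicate 3 fell inside the T0 range. NUP153 had a log2 fold change of 0.91 ± 0.40 (SE, edgeR adjusted p = 0.381). TPR, the coiled-coil filament of the basket, was at 38.5, 31.4 and 33.9 TPM at T0 and 50.7, 57.7 and 29.7 TPM at T16. Its T16 replicate 3 was below every T0 library. TPR had a log2 fold change of 0.47 ± 0.32 (SE, edgeR adjusted p = 0.606).

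The transmembrane ring anchors the pore in the envelope, and its measured members are NDC1 and NUP210. NDC1 was at 14.8, 12.8 and 14.8 TPM at T0 and 29.9, 17.1 and 13.1 TPM at T16. T16 replicate 3 fell inside the T0 range. NDC1 had a log2 fold change of 0.57 ± 0.37 (SE, edgeR adjusted p = 0.572). NUP210, a glycoprotein whose expression differs between cell types, was the least abundant member at 8.91, 5.32 and 3.28 TPM at T0 and 1.48, 13.9 and 2.31 TPM at T16. It had the widest T16 spread of all members, 9.42 times from lowest to highest, and was highest in the oocyte-poor library of each group. NUP210 had a log2 fold change of 0.02 ± 0.88 (SE, edgeR adjusted p = 0.996).

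The order of the libraries within a group divided the members. Replicate 1 was the highest T0 library for 13 members, replicate 2 for 4 and replicate 3 for 12. For the T16 group the numbers were 22 (75.9%), 6 and 1, whereas 43.5%, 38.8% and 17.8% of the tested genes with a value above 0 in every library had their T16 maximum there. Of the 29 members, 21 were higher in T16 replicate 1 than in any of the other 5 libraries. T16 replicate 1 was also the library with the lowest stromal, theca, smooth muscle and endothelial marker sums. Its oocyte marker sum was the highest of the T16 group, at 2584 TPM against 97.2 and 911 TPM in replicates 2 and 3. A link of these marker sums to the order of the members was not tested. As medians over the members, the highest library was 2.28 times the lowest at T16 and 1.51 times at T0 (2.43 and 2.00 times over all genes). Over genes with a mean of 10 TPM or more, the level of most members, it was 2.09 times at T16 and 1.79 times at T0. When T16 replicate 1 was left out of the edgeR fit, 7 log2 fold changes turned from above to below 0, those of NUP133, NUP85, NUP43, NUP35, NUP93, NUP54 and NUP58, and the member median was 0.38.

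In both groups, SEC13, NUP37, NUP43, NUP35, NUP93 and NUP54 had the same order of libraries as the summed oocyte markers, 6 members or 20.7% against 12.7% of all genes. NUP188, NUP62 and NUP210 had exactly the opposite order in both groups, 3 members or 10.3% against 10.3% of all genes. The 5 members with groups that did not overlap on both scales belong to neither set. NUP37 shows the first pattern at 32.4, 74.7 and 98.3 TPM at T0 and 102, 27.6 and 38.3 TPM at T16. Leaving out both oocyte-poor libraries left 2 libraries per group, and 19 members then lay without overlap above T0 and 1 below in CPM, against 25.3% of all genes above and 27.3% below. These libraries were picked by marker levels in the same data. With any 1 library left out, 8 to 16 members were without overlap. Leaving out T0 replicate 1 alone gave the upper end, 16 members above and 0 below, against 21.2% and 19.4% of all genes. Neither without both oocyte-poor libraries nor without T0 replicate 1 alone did edgeR call a member at the FDR. In these fits 8 (27.6%) and 9 members (31.0%) were at an unadjusted edgeR p below 0.05, against 16.4% and 15.2% of all genes.

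**Figure D3:**
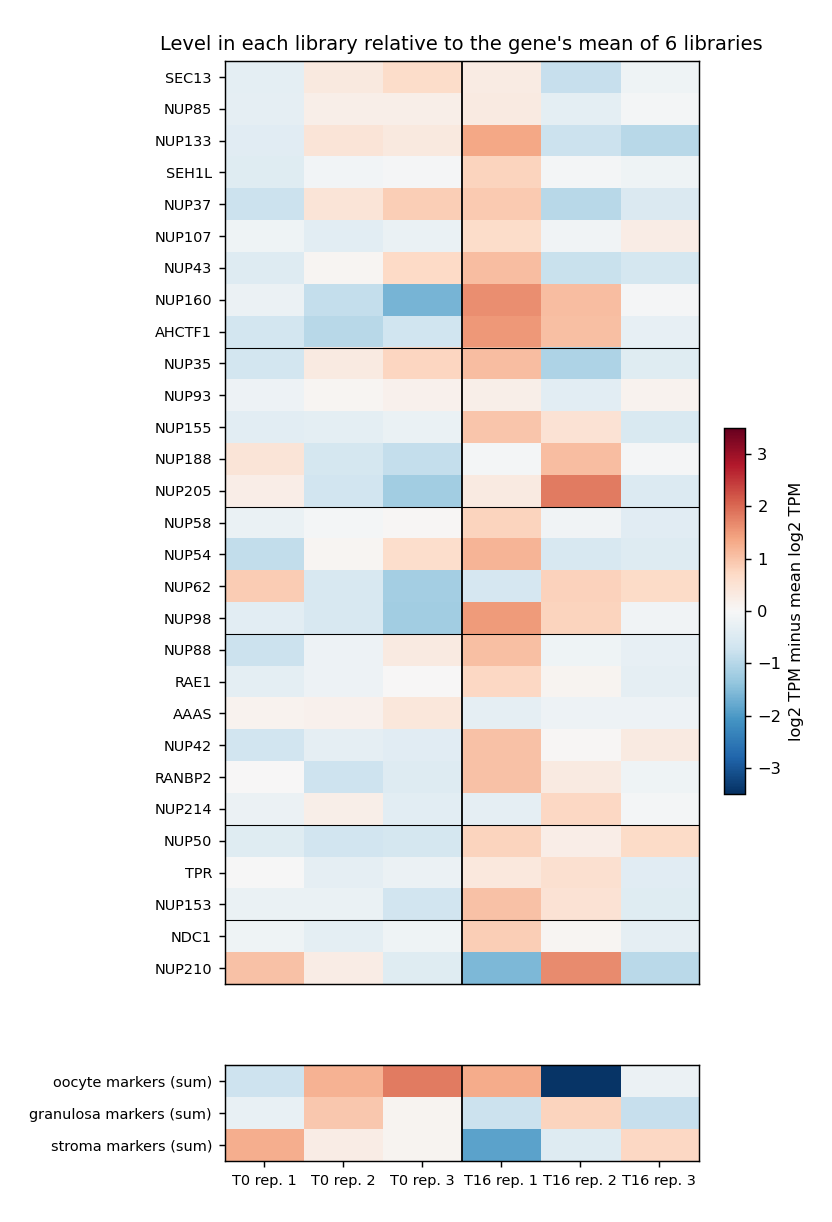
Level of each nucleoporin in each library as log2 TPM minus the gene's mean log2 TPM over 6 libraries (colour), with summed oocyte, granulosa and stroma markers below on the same scale. T16 replicate 1 is the highest library for 21 of 29 members, while NUP188, NUP205, NUP62 and NUP210 are high in T0 replicate 1 and T16 replicate 2, the libraries with 628 and 97.2 TPM of summed oocyte markers.

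The DESeq2 calls were followed through each library left out in turn. DESeq2 called 4, 0 and 1 members higher without T0 replicates 1, 2 and 3, against 6.7%, 1.62% and 2.99% of all genes. It called 1, 2 and 4 without T16 replicates 1, 2 and 3, against 2.81%, 4.37% and 2.51%. NUP50 kept its call in 5 of 6 and lost it without T0 replicate 2 (DESeq2 adjusted p = 0.0815, with edgeR log2 fold changes of 1.34 to 1.70 over the 6 fits). NUP160, AHCTF1 and NUP98 each kept the call only without T0 replicate 1 and without T16 replicate 3, and lost it without T0 replicate 2, T0 replicate 3, T16 replicate 1 or T16 replicate 2. NUP42 was called only without T16 replicate 2. Without both oocyte-poor libraries, DESeq2 called all 5, against 7.56% of all genes called higher. The log2 fold changes of the 5 members stayed above 0.78 in every edgeR fit with 1 library left out, and that of NUP160 moved most, between 1.45 when T16 replicate 1 was left out and 2.37 when T0 replicate 1 was.

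Members with longer transcripts had larger log2 fold changes. Over the 29 members Spearman's rho between effective transcript length and log2 fold change was 0.54, across genes that share the same 6 libraries, and over all 14639 genes tested it was 0.048. The 7 members under 2000 bases had a median log2 fold change of 0.02, the 10 members of 2000 to 4000 bases 0.42, and the 12 members over 4000 bases 0.85. All genes in the same classes had medians of -0.14, -0.04 and -0.04. With the transcript lengths entered as offsets in the fit, the member medians were -0.09, 0.36 and 0.79. Abundance ran the other way, with a rho of -0.52 between mean TPM and log2 fold change over the 29 members, and longer members were less abundant, with a rho of -0.80 between length and mean TPM.

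**Figure D4:**
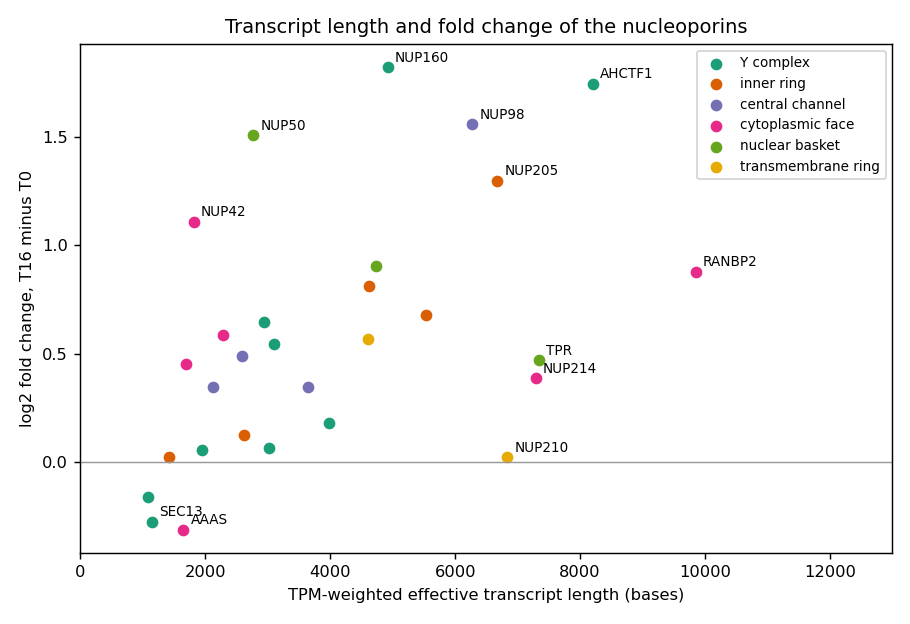
Log2 fold change (T16 minus T0) of the 29 nucleoporins against their effective transcript length in bases, with 1 point per gene coloured by subcomplex. SEC13, NUP37 and AAAS, with lengths under 2000 bases, lie below 0, and NUP160, AHCTF1, NUP98 and NUP205, over 4000 bases, lie between 1.30 and 1.82.

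At the level of transcripts, 11 members were measured by 1 matched transcript and 18 by several, 55 in all. NUP50 was measured by a transcript of 2124 bases and another of 5067 bases. The shorter was at 39.8, 34.5 and 36.4 TPM at T0 and 78.5, 44.1 and 69.5 TPM at T16. The longer was at 12.3, 9.80 and 9.62 TPM at T0 and 40.5, 38.3 and 41.9 TPM at T16. Both were without overlap, and the longer one held 20.9% to 23.6% of NUP50 TPM in the T0 libraries and 34.0% to 46.4% in the T16 libraries. The longer transcript matched the gene table only without its version number, and with versions required the NUP50 log2 fold change, then from the shorter transcript alone, was 0.86 (edgeR adjusted p = 0.328). AHCTF1, NUP98, NUP155, NUP153 and NDC1 matched only without version and have no value under that setting.

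**Figure D5:**
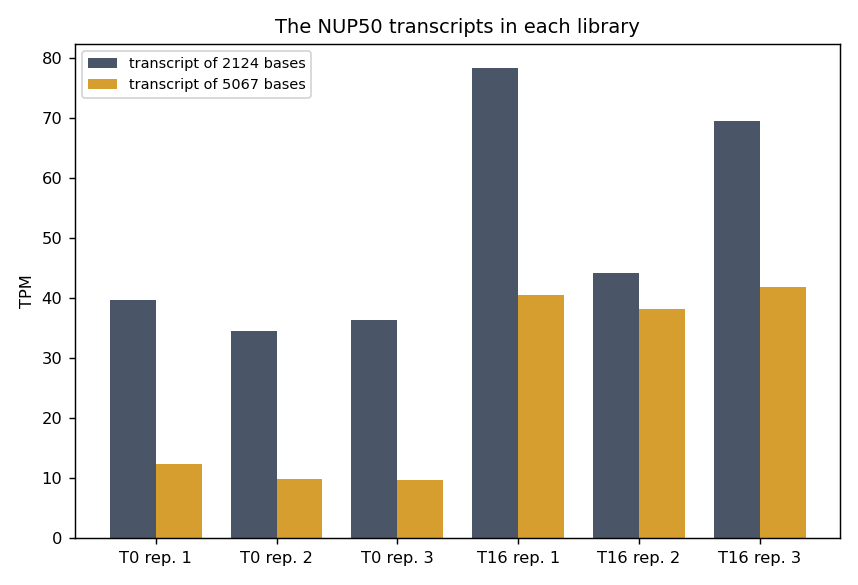
TPM of the transcripts of NUP50 in each library, as bars from 0, with the 2124-base transcript in grey and the 5067-base transcript in yellow. The longer transcript is at 9.62 to 12.3 TPM in the T0 libraries and 38.3 to 41.9 TPM in the T16 libraries.

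Of the other members, some kept their transcript shares and some did not. The 6777-base transcript of NUP98 held 61.1% of the gene's TPM at T0 and 61.0% at T16, and the main NUP93 transcript of 2836 bases 72.2% and 72.3%. For NUP85, the 2158-base transcript went from 30.8% of the gene's TPM at T0 to 12.2% at T16, but with 2.30% to 35.4% in single T16 libraries the groups overlapped. For AHCTF1, the 8389-base transcript held 73.6% and 90.3%, and for NUP214 a 7573-base transcript 46.3% and 24.0%, both with overlapping libraries. The 7538-base transcript of TPR held 97.1% and 84.8%, also with overlap. Salmon divides reads between similar transcripts by estimation, and these shares carry that uncertainty. The libraries do not mark strand, so reads of a gene that overlaps a member cannot be told apart from its own where exons coincide. ATF5 and IL4I1 lie across the NUP62 span at group means of at most 1.24 TPM, KIF28 across AHCTF1 at no more than 0.0268 TPM, and PRG4 across TPR at 0. Small nucleolar RNA genes lie across NUP107 and AHCTF1, at 0 TPM at T0 and at means of 3.19 and 1.01 TPM at T16.

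The nucleoporins work with transport receptors, the Ran cycle, mRNA export factors and the proteins of the lamina and envelope, of which 68 genes were listed and 67 tested (IPO5 was not found by symbol). None passed edgeR at the FDR. At an unadjusted edgeR p below 0.05, 10 were higher at T16 and 2 lower, DESeq2 called 4 higher and 0 lower, and 13 were without overlap above and 4 below in CPM, against the shares of all genes given above. Their median log2 fold change was 0.39.

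Among 18 importins, the receptors that carry cargo inward, the median log2 fold change was 0.50. In CPM, 5 were without overlap higher (27.8%, against 13.2% of all genes). IPO7, an importin for ribosomal proteins and histones, was at 24.3, 24.4 and 21.9 TPM at T0 and 62.6, 78.0 and 60.5 TPM at T16. The groups were far apart relative to their spread. IPO7 had a log2 fold change of 1.61 ± 0.29 (SE; edgeR adjusted p = 0.0921, DESeq2 adjusted p = 4.87e-05), and DESeq2 called it with any 1 library left out. KPNA1, an importin alpha adaptor, had a log2 fold change of 1.01 ± 0.34 (SE, edgeR adjusted p = 0.245). Among 7 exportins the median was 0.57, with XPOT, the tRNA exportin, at 1.30 ± 0.35 (SE; edgeR adjusted p = 0.16, DESeq2 adjusted p = 0.0367, a call lost without T0 replicate 2, T0 replicate 3 or T16 replicate 1). XPO1, the main protein exportin, was at -0.95 ± 0.50 (SE, edgeR adjusted p = 0.468), the only exportin below 0. In CPM, 1 exportin was without overlap higher (14.3%) and 1 lower, XPO1, against 13.2% and 10.6% of all genes. On the TPM scale 2 were higher and 0 lower.

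Of 7 Ran cycle genes, with a median of 0.07, 1 was without overlap, the GTPase gene RAN itself. That share of 14.3% was close to the 13.2% of all genes. RAN was at 763, 461 and 452 TPM at T0 and 1042, 925 and 1089 TPM at T16, and its log2 fold change was 1.03 ± 0.39 (SE, edgeR adjusted p = 0.3). NUTF2, the carrier that returns Ran to the nucleus, was at 0.56 ± 0.34 (SE, edgeR adjusted p = 0.547). Of 19 mRNA export genes, with a median of 0.40, 4 were without overlap higher (21.1%, against 13.2% of all genes). The paralogous helicases DDX39B and DDX39A, which load export factors onto mRNA, had log2 fold changes of 1.53 ± 0.34 and 1.34 ± 0.35 (SE; edgeR adjusted p = 0.122 and 0.152, DESeq2 adjusted p = 0.000847 and 0.0306). DDX39B was at 189.5, 164 and 126 TPM at T0 and 475, 449.9 and 381 TPM at T16, and reads shared with its paralog are divided by estimation. DESeq2 called DDX39B with any 1 library left out, and DDX39A except without T0 replicate 2 or T16 replicate 3.

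The 16 lamina and envelope genes differed from the other 4 lists in that their median log2 fold change was below 0, at -0.20, a difference between lists that was not tested. In CPM, 2 of the 16 were without overlap higher (12.5%) and 3 lower, against 13.2% and 10.6% of all genes. LMNA, the A-type lamin, was at 236, 107 and 170.0 TPM at T0 and 304, 468 and 402 TPM at T16, with a log2 fold change of 1.26 ± 0.44 (SE, edgeR adjusted p = 0.26). LBR, the lamin B receptor, was at 44.9, 54.1 and 75.4 TPM at T0 and 24.2, 33.8 and 18.8 TPM at T16, without overlap, with a log2 fold change of -1.07 ± 0.34 (SE, edgeR adjusted p = 0.22).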

How the data were processed

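Full-length cDNA (SMART-Seq v4) libraries of 3 pools of PMF at T0 and 3 at T16 were quantified by the authors against RefSeq transcripts. The submitters' processing notes name Trim Galore and Salmon. The deposited values are estimated counts (not whole numbers) and TPM for each of 76123 transcripts, with transcript lengths. Transcripts were assigned to gene symbols by accession without version, using RefSeq gene names for ARS-UCD2.0, a later assembly than the authors used, which matched 50205 transcripts (66.0%). Unmatched transcripts held 9.74% to 10.9% of the estimated counts per library and were left out. Counts and TPM were summed to genes and counts were rounded. Genes reaching 10 counts in 3 or more libraries were tested with edgeR 4.0.16 (quasi-likelihood, TMM normalization, R 4.3.3) over both groups, and p-values were adjusted by Benjamini-Hochberg over all 14639 genes. DESeq2 1.42.0 (Wald test) was the alternative tool. The SE is the log2 fold change divided by the square root of the edgeR F statistic. SD and n refer to libraries. The script was tested on simulated data.

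Per-library values are given for members without overlap or with an unadjusted p below 0.05 and for the most and the least abundant member of each subcomplex, and for some others chosen after their values were seen. Of each transport list, the 2 genes with the smallest edgeR p are named. The members and all lists were chosen with earlier results of these data known. Other settings tried were DESeq2 size factors, no count filter, a minimum of 50 counts, transcript length offsets, a replicate block, matching with version, and leaving out libraries. Leave-one-out fits with DESeq2 and the recounts of members without overlap were added after seeing the data. Coordinates and sequences were not used here.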

Additional observations from a re-analysis of the deposited data

How the results depend on the processing

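The number of all genes called at the FDR was 6 in the reported fit, 1019 with DESeq2, 11 without a count filter, 2 with versions required, 0 with a replicate block, 0 without both oocyte-poor libraries, and 0 to 3 with 1 library left out. Members called were 0 in every edgeR fit, 4 with DESeq2, 0 to 4 with DESeq2 and 1 library left out, and 5 with DESeq2 without both oocyte-poor libraries. Pathway genes called were 0 with edgeR and 4 with DESeq2. Members without overlap were 7 as reported (23.8% of all genes in either direction), 5 with DESeq2 size factors (without SEH1L and RAE1; 24.2% of all genes), 20 without both oocyte-poor libraries (52.7%) and 8 to 16 with 1 library left out (26.6% to 40.6%). The member median log2 fold change was 0.38 to 0.61 with 1 library left out. The log2 fold changes of 20 members kept their sign under each alternative that gave them a value, 18 of them above 0, and SEC13 and AAAS below. With versions required, AHCTF1, NUP98, NUP155, NUP153 and NDC1 were not measured, which leaves 24 members. The other 9 changed sign somewhere, the largest of them in the reported fit being 0.35 (NUP54).

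Values below 0 for NUP85, NUP43, NUP35 and NUP210 were -0.0065, -0.0011, -0.044 and -0.028 with DESeq2 or its size factors, and -0.059, -0.059, -0.110 and -0.014 with at least 50 counts. For NUP85, NUP43 and NUP35 they were -0.039, -0.042 and -0.092 without a filter and -0.031, -0.040 and -0.090 with length offsets. NUP35 was at -0.015 with versions required, and NUP210 at -0.891 without both oocyte-poor libraries. With 1 library left out the ranges were -0.95 to 0.51 for NUP133, -0.15 to 0.22 for NUP85, -0.93 to 0.17 for NUP37, -0.79 to 0.38 for NUP43, -0.84 to 0.40 for NUP35, -0.057 to 0.32 for NUP93, -0.48 to 0.65 for NUP54, -0.082 to 0.49 for NUP58 (0.50 without both oocyte-poor libraries) and -1.48 to 0.61 for NUP210. T16 replicate 1 set the lower end for 7 of these 9. The cause of these shifts was not tested.

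With the replicate number as a block, NUP133, NUP43, NUP35 and NUP210 were at -0.189, -0.135, -0.208 and -0.385. Same-numbered libraries did not deviate together (correlations of -0.445, -0.121 and -0.005), so the block pairs libraries that share only a number. At 3 libraries per group, the SE of a member log2 fold change was 0.28 to 0.88, and POM121 and IPO5 were not analysed here.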

Other observations

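Outside the genes named by the smallest p, 2 transport and lamina genes were singled out after their values were seen for their range between libraries. KPNA7, an importin alpha known from oocytes and early embryos, was at 28.7, 90.7 and 147 TPM at T0 and 90.1, 0.495 and 27.6 TPM at T16, the same order of libraries as the summed oocyte markers in both groups. LMNB1, a B-type lamin of somatic nuclei, was at 68.7, 19.4 and 16.0 TPM at T0 and 0.341, 60.6 and 20.8 TPM at T16, the opposite order in both groups. Of the tested genes above 0 in every library, 12.7% had the order of the oocyte markers and 10.3% the opposite order. Such orders were therefore common, and their cause was not tested. No difference between T0 and T16 beyond the spread between libraries was detected (edgeR adjusted p = 0.799 for KPNA7 and 0.947 for LMNB1). KPNA2, a more abundant importin alpha, was at 309 to 541 TPM at T0 and 320 to 575 TPM at T16.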
